A study of Mus musculus with 1931 samples.

Results

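The 10 basement membrane genes *Lama1*, *Lamb1*, *Lamc1*, *Lama5*, *Col4a1*, *Col4a2*, *Nid1*, *Nid2*, *Hspg2* and *Sparc* were taken by symbol from the 20999 genes of a single-cell RNA-sequencing table of Rosette-to-Lumen stage embryoids (RtL-embryoids) and 2D cultures. The 3D structures self-assemble from 3 mouse ESC lines. Kermit ESCs, in which Oct3/4 drives GFP, give the epiblast-like (Epi) compartment, 5-Factor ESCs hold doxycycline (DOX)-inducible *Cdx2*, *Tfap2c*, *Eomes*, *Gata3* and *Ets2* and give the extraembryonic ectoderm-like (ExE) compartment, and mCherry-transduced iGATA6 ESCs carry DOX-inducible *Gata6* and give the visceral endoderm-like (VE) compartment. Structures handpicked for correct assembly were pooled, dissociated and sorted on GFP, mCherry and a CD40 stain into plates 3, 4 and 5. The labels give the well and not the gate, and the wells of columns 1 to 8, 9 to 16 and 17 to 24 are called the Epi, VE and ExE block here. The 2D cultures were Kermit ESCs in 2i/LIF, iTSCs (5-Factor ESCs reprogrammed in trophoblast stem cell medium) and iXEN cells (iGATA6 ESCs reprogrammed in extraembryonic endoderm medium). The iTSC medium was partly conditioned by feeder cells and held FGF4 and heparin, which are not described for the other groups. DOX at 2 µg/ml was in the medium of the whole 3D co-culture, Kermit cells included, and of the iTSC and iXEN cultures for 3 days, with harvest 1 day after its withdrawal, while no DOX is described for the 2D ESCs. The pool and each culture are 1 sample, so no difference between groups could be tested, and the plates of the pool are technical splits.

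A basement membrane is a thin sheet of secreted matrix on which epithelia rest. Laminins, trimers of an α, a β and a γ chain, assemble on the cell surface, collagen IV forms a second network, and nidogens and the heparan sulfate proteoglycan perlecan tie the networks together. In the implanting mouse embryo the primitive and visceral endoderm secrete this sheet around the epiblast, which polarizes against it. Which cells of the RtL-embryoid expressed its genes was the question put to the data.

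The 2 collagen IV genes are shown first, since they are neighbors that start head to head on chromosome 8 and their levels moved together in these data. Both sequences are the RefSeq windows (GRCm38.p6) from 250 bases before to 50 bases after the start site, *Col4a1* at chr8:11312777-11313076 on the minus strand and *Col4a2* at chr8:11312555-11312854 on the plus strand. Capitals mark the 78 bases that the windows share, read from opposite strands, and in Gencode vM21 the genes' exons overlap by 22 bases.
Col4a1: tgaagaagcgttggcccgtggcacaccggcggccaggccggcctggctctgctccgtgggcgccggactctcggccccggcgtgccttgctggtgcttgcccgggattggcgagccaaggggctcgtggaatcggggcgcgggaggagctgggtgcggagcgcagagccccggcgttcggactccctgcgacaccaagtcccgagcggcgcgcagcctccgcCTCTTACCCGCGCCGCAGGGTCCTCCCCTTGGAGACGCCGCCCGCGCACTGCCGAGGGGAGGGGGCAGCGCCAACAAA
Col4a2: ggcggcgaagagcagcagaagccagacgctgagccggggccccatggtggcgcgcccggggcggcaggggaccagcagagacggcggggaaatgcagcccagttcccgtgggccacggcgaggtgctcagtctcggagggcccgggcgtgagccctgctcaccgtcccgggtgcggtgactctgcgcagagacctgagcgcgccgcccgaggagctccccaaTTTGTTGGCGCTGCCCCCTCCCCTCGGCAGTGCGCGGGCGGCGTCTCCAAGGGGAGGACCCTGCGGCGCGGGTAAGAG
Of the 10 genes, 7 matched an entry of the promoter table. *Lama1*, *Lamc1* and *Nid2* had none. On either strand, CCAAT occurred in 4 of the 7 windows, both collagen IV genes included, and in 37.9% of the 27025 windows of all genes. GGGCGG occurred in 6 of 7 windows, all but that of *Sparc*, and in 35.9% of all windows. The GATA motif, searched as AGATAA, as TGATAA and as each of these with G as the last letter, occurred in 0 of 7 windows and in 30.2% of all windows. The windows with GGGCGG were 63.7% to 74% G or C and that of *Sparc* 55.3%, against a median of 52.7% over all windows. These matches describe letters only, and the part of base composition in them was not tested. The other genes lie apart from each other, *Lama1* at chr17:67697259-67822647, *Lamb1* at chr12:31265234-31329644, *Lamc1* at chr1:153218922-153332786, *Lama5* at chr2:180176373-180225859 and *Hspg2* at chr4:137468769-137570630 (GRCm38). *Nid1* lies at chr13:13437551-13512269, *Nid2* at chr14:19751265-19811787 and *Sparc* at chr11:55394500-55423183. Each value in the table is for a whole gene. In Gencode vM21 the longest coding transcripts of the genes range from 2300 bases for *Sparc* to 14187 bases for *Hspg2*.

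Of 1931 wells, 1406 had at least 2500 genes above 0 and were kept as cells. Of 982 cells of the RtL-embryoids, 31.98% were in the Epi, 32.08% in the VE and 35.95% in the ExE block, and of 424 2D cells 33.49% were ESCs, 33.25% iTSCs and 33.25% iXEN cells. The median number of genes above 0, which stands for depth as TPM keep no read number, was 4823 to 5396 in the 3D blocks and 8537 to 9093.5 in the 2D cultures. More cells are thus expected to show a weakly expressed gene in 2D. Shares of cells are compared within 3D or within 2D only, except in the rule for differing genes, which also uses them across both. The shares of Epi block cells and ESCs given beside that rule for *Lama1*, *Col4a1* and *Col4a2* carry this difference in depth. Marker genes matched the blocks to differing degrees. Epi markers were *Pou5f1*, *Nanog*, *Gdf3*, *Tdgf1*, *Sox2* and *Fgf4*. VE markers were *Amn*, *Dkk1*, *Gata4*, *Sox17*, *Cubn*, *Lrp2* and *Foxa2*. ExE markers were *Cdx2*, *Elf5*, *Eomes*, *Tfap2c*, *Gata3* and *Bmp4*. Of the ExE markers, *Cdx2*, *Eomes*, *Tfap2c* and *Gata3* are also transgenes of the 5-Factor line, and the part of transgene RNA was not tested. A larger share of the block's own markers than of the other blocks' markers was found in 99.7% of Epi, 98.7% of VE and 71.4% of ExE block cells. Of the remaining ExE block cells, 49 were led by VE markers, 21 by Epi markers and 31 were tied. In the VE block the pluripotency gene *Pou5f1* averaged 4.53 TP10k against 14.2 in the Epi block, and the part of such RNA in the results was not tested.

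The VE block and its 2D counterpart carried most of the RNA of the 10 basement membrane genes. Levels are TP10k, TPM rescaled to a sum of 10000 per cell, which are per transcript length and can be summed over genes. The 10 genes summed to 102.8 TP10k per cell in the VE block (93.2 to 114.2 on the 3 plates), which is 1.03% of the deposited signal. They summed to 4.84 TP10k in the Epi block (4.29 to 5.41) and 8.43 TP10k in the ExE block (6.65 to 9.94). In 2D the sum was 151.1 TP10k in iXEN cells, 14.4 in iTSCs and 12.6 in ESCs. Weighting the 3 blocks equally, the VE block held 88.6% of the summed level (87.50% to 89.04% on the plates), the ExE block 7.26% and the Epi block 4.17%. The corresponding shares in 2D were 84.8% for iXEN cells, 8.11% for iTSCs and 7.06% for ESCs. Sorted blocks do not reflect how many cells of each kind a structure holds, so these are shares per cell and not per structure.

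**Figure D1:**
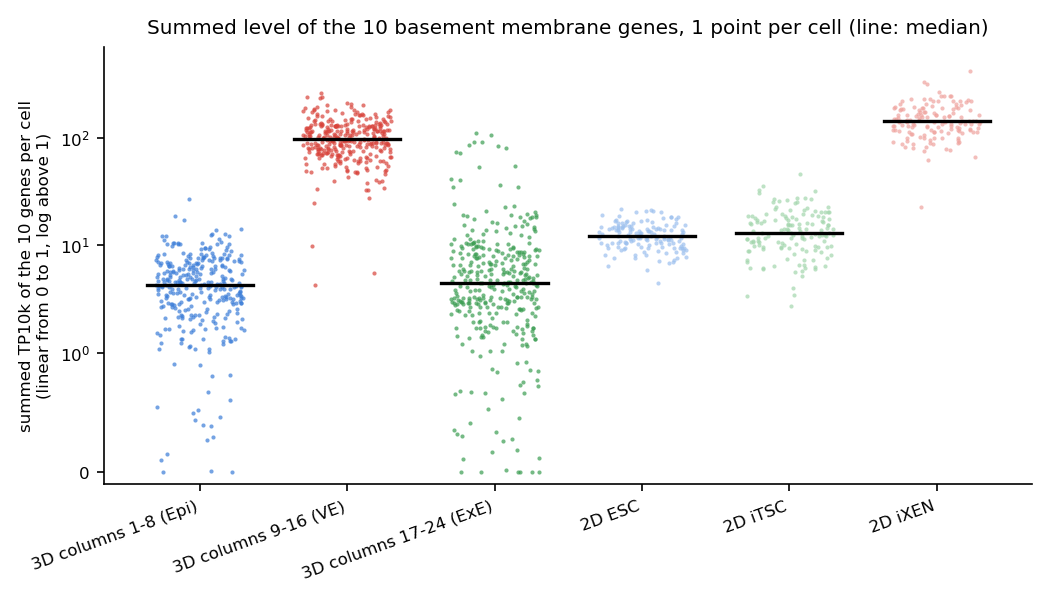
Summed TP10k of the 10 basement membrane genes in each cell (y axis, linear from 0 to 1 and logarithmic above 1) for the 3 blocks of the RtL-embryoids and the 3 2D cultures (x axis), with 1 point per cell and the median as a line. The medians are 4.24 in the Epi, 97.3 in the VE and 4.42 in the ExE block, and a few ExE block cells lie in the range of the VE block.

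Single cells of the VE block stood apart from most cells of the Epi and ExE blocks. The Epi and ExE blocks overlapped, with medians of 4.24 and 4.42 TP10k. At a level of 10 TP10k the 2D cultures separated less than the VE block did from the other blocks. The sum exceeded 10 TP10k in 99.05% of VE block cells, 23 Epi block cells (7.32%) and 64 ExE block cells (18.1%). In 2D it did so in all iXEN cells, 76.1% of ESCs and 70.9% of iTSCs. The 3 VE block cells at or under 10 TP10k were all among the 4 cells of this block in which VE markers did not lead. All 10 genes were found together in 77 VE block cells (24.4%), 5 ExE block cells (1.42%) and 0 Epi block cells, a count that allows a share of up to 0.955%. In the more deeply detected 2D cells this held for 80.9% of iXEN cells, 36.6% of ESCs and 4.26% of iTSCs. *Sparc* made up 58.3% of the sum in the VE block and 69.95% in iXEN cells. Without *Sparc* the sums were 42.9 and 45.4 TP10k in these groups, 3.68 in the Epi block, 4.16 in the ExE block, 6.54 in ESCs and 6.57 in iTSCs.

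*Lama1*, *Lamb1* and *Lamc1* encode the α1, β1 and γ1 chains of the first laminin of the mouse embryo, and all 3 were highest in the VE block or in iXEN cells. *Lama1* averaged 3.17 TP10k in the VE block (3.02 to 3.37 on the plates), 0.0087 in the Epi and 0.0784 in the ExE block, and 3.21 in iXEN, 0.0949 in ESC and 0.0090 in iTSC cultures. It was above 0 in 97.8% of VE block cells (exact 95% interval 95.5% to 99.1%), 9.87% of Epi block cells (6.81% to 13.7%) and 22.4% of ExE block cells (18.1% to 27.1%). These intervals, and those that follow, cover counting error only. The VE block mean was 364.04 times that of the Epi block (302.6 to 520.7 by plate) and 40.4 times that of the ExE block (35.2 to 55.4), or 179.9 times with only cells led by their block's markers. The VE block and iXEN cells did not differ in *Lama1* beyond the spread of the plates.

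*Lamb1* averaged 5.86 TP10k in the VE block (5.23 to 6.97), 0.188 in the Epi block and 0.372 in the ExE block. In 2D it averaged 5.16 TP10k in iXEN cells, 0.236 in iTSCs and 0.0847 in ESCs. *Lamc1* averaged 9.22 TP10k in the VE block (8.72 to 9.58), 0.650 in the Epi block and 1.04 in the ExE block, against 6.32 in iXEN cells, 1.401 in ESCs and 0.511 in iTSCs. The γ1 chain, which nearly all laminins share, was the laminin gene with the most even spread over the groups among these 3, its highest mean being 18.05 times the lowest, against 69.2 times for *Lamb1* and 368.4 times for *Lama1*. In the VE block *Lamc1* exceeded *Lama1* 2.91-fold (2.84 to 3.00) and *Lamb1* 1.57-fold (1.37 to 1.80) on the TP10k scale. In ESCs *Lamc1* exceeded *Lamb1* 16.5-fold. All 3 chains were above 0 together in 97.1% of VE block cells (94.6% to 98.7%), 2.23% of Epi block cells (0.901% to 4.54%) and 14.4% of ExE block cells (10.95% to 18.6%). In 2D this held for 99.3% of iXEN cells, 57.7% of ESCs and 19.1% of iTSCs.

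*Lama5* encodes the α5 chain, which joins the same β1 and γ1 partners and is widespread in epithelial basement membranes, and it ran the other way. It averaged 1.38 TP10k in the ExE block (1.12 to 1.69), 0.934 in the Epi block (0.882 to 0.961) and 0.406 in the VE block (0.340 to 0.531). In 2D it averaged 3.89 TP10k in iTSCs, 1.24 in ESCs and 1.08 in iXEN cells, and the ExE block, ESC, iXEN and Epi block means each lay within 1.5-fold of the next. The VE block mean was 2.30-fold below that of the Epi block (1.81 to 2.82 by plate) and 3.39-fold below that of the ExE block (3.18 to 3.85). *Lama5* was above 0 in 34.6% of VE block cells (29.4% to 40.1%), 53.2% of Epi block cells (47.5% to 58.8%) and 73.9% of ExE block cells (69.03% to 78.4%). The VE block was thus the only 3D block in which *Lama1* exceeded *Lama5*, by 7.81-fold (5.91 to 9.83 by plate). *Lama5* exceeded *Lama1* 107.3-fold in the Epi block (79.1 to 159.5), 17.5-fold in the ExE block (15.3 to 19.3), 13.03-fold in ESCs and 432-fold in iTSCs. In iXEN cells *Lama1* led by 2.97-fold. Neither α chain was found in 42.4% of Epi block cells (36.8% to 48.03%), 18.7% of ExE block cells (14.8% to 23.2%) and 0.635% of VE block cells (0.0770% to 2.27%).

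**Figure D2:**
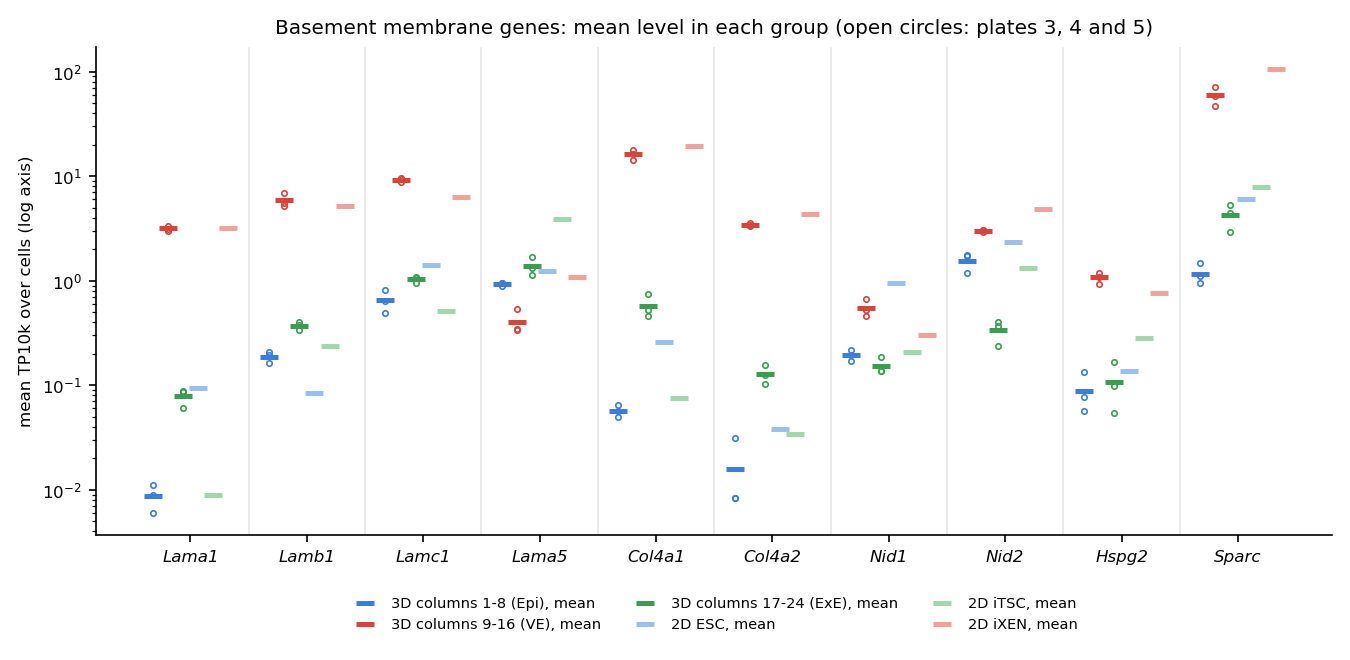
Mean TP10k over cells (y axis, logarithmic) of each basement membrane gene (x axis) in the 3 blocks of the RtL-embryoids and the 3 2D cultures, with bars for group means and open circles for plates 3, 4 and 5. The VE block and iXEN bars stand above the others for most genes, while *Lama5* is lowest in the VE block and *Nid1* is highest in ESCs.

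*Col4a1* and *Col4a2*, the chains of the collagen IV found in nearly all basement membranes, were the members with the sharpest restriction next to *Lama1*. *Col4a1* averaged 16.1 TP10k in the VE block (14.4 to 17.98), rank 49 of all genes, with 0.0573 in the Epi and 0.574 in the ExE block. In 2D it averaged 19.4 TP10k in iXEN cells (rank 39), 0.257 in ESCs and 0.0750 in iTSCs. *Col4a2* averaged 3.45 TP10k in the VE block (3.35 to 3.55), 0.0158 in the Epi block, 0.128 in the ExE block, 4.36 in iXEN cells, 0.0378 in ESCs and 0.0339 in iTSCs. Both genes were above 0 in 98.7% of VE block cells (96.8% to 99.7%), 7 Epi block cells (2.23%) and 36 ExE block cells (10.2%). In 2D both were above 0 in all iXEN cells, 54.2% of ESCs and 21.99% of iTSCs. Over the Epi block, the VE block was higher 281.9-fold for *Col4a1* (223.4 to 324.6 by plate) and 217.9-fold for *Col4a2* (112.7 to 409.03, and 404.2-fold without plate 3). Over the ExE block it was higher 28.2-fold (19.4 to 35.1) and 26.98-fold (21.4 to 33.9). With only cells led by their block's markers, these became 224.8-fold and 139.3-fold, and with means of ln(TP10k + 1) 83.3-fold and 41.4-fold. *Col4a1* exceeded *Col4a2* in every group, by 4.68-fold in the VE block (4.29 to 5.22) and 4.44-fold in iXEN cells, on the TP10k scale.

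The nidogens, which bind laminin γ1 and collagen IV, were less restricted. *Nid2* averaged 3.00 TP10k in the VE block (2.92 to 3.06), 1.54 in the Epi block (1.18 to 1.75) and 0.339 in the ExE block (0.235 to 0.406), and 4.84 in iXEN cells, 2.34 in ESCs and 1.33 in iTSCs. It was the most abundant member in the Epi block, where it made up 31.8% of the sum. *Nid2* was above 0 in 83.8% of Epi block cells (79.2% to 87.7%) and 31.7% of ExE block cells (26.9% to 36.9%), and its VE block mean was 1.95 times that of the Epi block (1.67 to 2.58) and 8.87 times that of the ExE block (7.47 to 12.99), the latter 14.6 times with only cells led by their block's markers. *Nid2* shares 437 exonic bases with *Rtraf* on the opposite strand, whose means lay between 1.82 and 3.03 TP10k in the 6 groups, and the reads of this stretch cannot be told apart without strand. *Nid1* shares exonic bases with an antisense gene, as does *Col4a2* with another (43 bases), and neither antisense gene was analysed here. *Nid1* averaged 0.957 TP10k in ESCs, 0.548 in the VE block (0.460 to 0.671), 0.305 in iXEN cells, 0.209 in iTSCs, 0.196 in the Epi block and 0.152 in the ExE block. From iXEN cells to the ExE block each mean lay within 1.5-fold of the next. *Nid2* exceeded *Nid1* in every group, from 2.22-fold in the ExE block to 15.9-fold in iXEN cells.

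*Hspg2*, which encodes the core protein of perlecan, averaged 1.08 TP10k in the VE block (0.939 to 1.19), 0.0883 in the Epi block and 0.108 in the ExE block. In 2D it averaged 0.760 TP10k in iXEN cells, 0.280 in iTSCs and 0.135 in ESCs. The VE block was higher 12.2-fold than the Epi block (8.97 to 19.1) and 10.01-fold than the ExE block (7.15 to 17.3), and the Epi and ExE blocks overlapped across plates.

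*Sparc* encodes a secreted collagen-binding glycoprotein that early extraembryonic endoderm makes in bulk. It averaged 105.7 TP10k in iXEN cells and 59.9 in the VE block, where it ranked 3 and 6 among all genes. The other means were 7.87 TP10k in iTSCs, 6.04 in ESCs, 4.26 in the ExE block and 1.17 in the Epi block. The VE block mean was 51.3 times that of the Epi block (49.05 to 53.5) and 14.05 times that of the ExE block (11.1 to 16.1), the latter 28.4 times with only cells led by their block's markers and 33.2 times with means of ln(TP10k + 1). Within the VE block plates 3, 4 and 5 gave 72.1, 59.03 and 46.8 TP10k, the widest spread in TP10k among the members, with medians of 6622, 4913 and 4957 genes above 0.

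**Figure D3:**
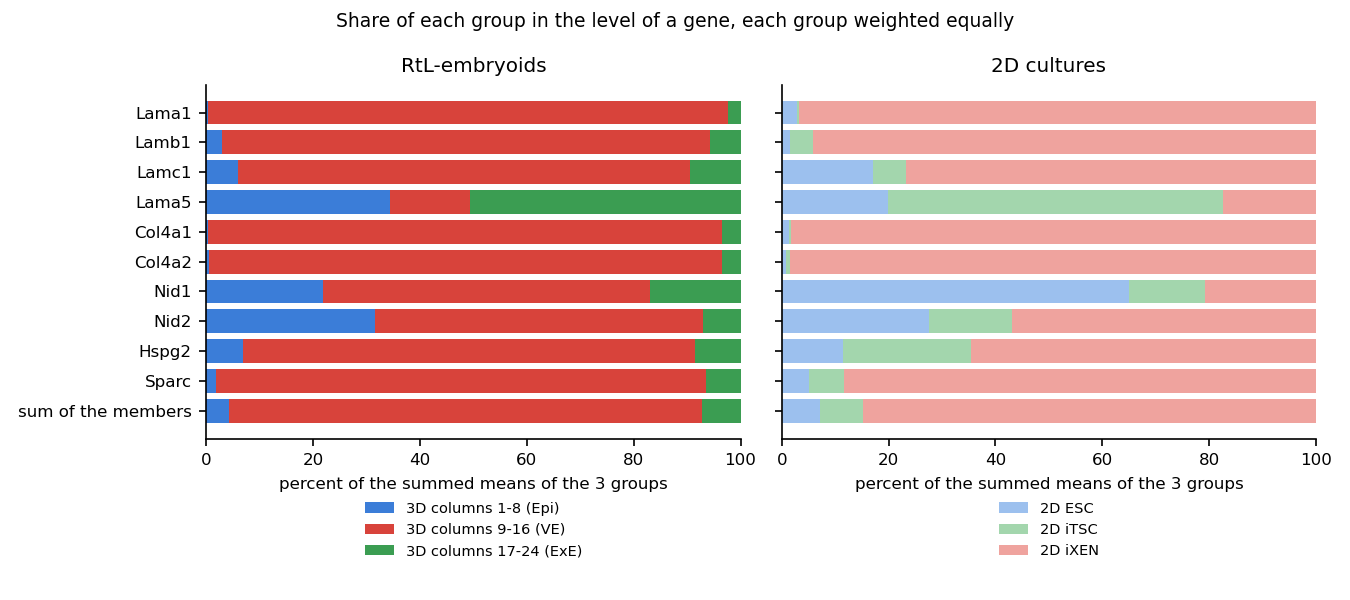
Percent of the summed means of 3 groups (x axis, stacked to 100) that each group holds for each basement membrane gene and for their sum (y axis), in the RtL-embryoids (left) and the 2D cultures (right), each group weighted equally. The VE block holds 97.3% for *Lama1* and 96.2% for *Col4a1* but 14.95% for *Lama5*, of which the ExE block holds 50.7% and the Epi block 34.4%.

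With 1 sample a group, a gene was counted as differing where at least 25% of cells showed it in either group and its mean differed at least 2-fold in the same direction on each plate. Comparisons that name the same group share its cells. Between the VE and the Epi block, 8 of 10 members were higher in the VE block, where 16.5% of all 8500 genes compared were, and *Lama5* was the 1 member that was lower, as were 13% of all genes. *Nid2* stayed just inside 2-fold. The median log2 fold was 4.39 over the members and -0.02 over all genes compared. Between the VE and the ExE block, 9 members were higher (8.35% of 8694 genes) and *Lama5* was lower (11.9%), with a median log2 fold of 3.57 over the members and -0.12 over all genes. Between the Epi and the ExE block 7 members could be compared, of which *Sparc* and *Nid2* differed. *Sparc* was 3.65-fold higher in the ExE block (3.06 to 4.83), where 13.3% of 8511 genes were higher, but averaged 2.13 TP10k in the cells led by ExE markers and then stayed inside 2-fold. *Nid2* was 4.55-fold lower in the ExE block (2.90 to 7.25), where 6.74% were lower. *Lama1*, *Col4a1* and *Col4a2* were found in too few cells of both blocks to be counted. Their ExE block means were 9.01, 10.01 and 8.08 times those of the Epi block. With only cells led by their block's markers these became 2.04, 1.27 and 1.77 times.

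In 2D, iXEN cells had the highest mean for 8 members, as the VE block had for 9 members in 3D, while the order of all 3 lineages was the same in 3D and 2D for 5 of 10 members. In iXEN cells, 8 of 10 members were higher than in ESCs (19.3% of 11641 genes) and *Nid1* was lower (17.2%), 3.14-fold. The largest differences were those of *Col4a2* (115.5-fold), *Col4a1* (75.4-fold), *Lamb1* (60.9-fold) and *Lama1* (33.8-fold), and the median log2 fold was 3.31 over the members and -0.02 over all genes. Against iTSCs, 8 members were higher in iXEN cells (12.1% of 11161 genes), with *Lama1* at 356.2-fold and *Col4a1* at 258.1-fold, and *Lama5* was lower (16.1%), 3.59-fold. iTSCs and ESCs differed in both directions. *Lamb1* (2.78-fold), *Lama5* (3.14-fold) and *Hspg2* (2.07-fold) were higher in iTSCs, 3 members where 18.2% of 11566 genes were higher. *Lama1*, *Lamc1*, *Col4a1* and *Nid1* were lower in iTSCs, 4 members where 10.3% of genes were lower, by 2.74-fold for *Lamc1* to 10.5-fold for *Lama1*. Each 2D culture stood on a plate of its own, so culture and plate cannot be told apart.

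Between the RtL-embryoids and the 2D cultures, the endoderm-like cells differed in the fewest members. The shares of all genes that differed were lowest in this pair as well. Against iXEN cells, the VE block was lower for 1 member (6.63% of 10283 genes), *Lama5*, by 2.66-fold (2.04 to 3.18), and higher for none, where 3.11% of all genes were. For *Lama1*, *Lamb1*, *Lamc1*, *Col4a1*, *Col4a2* and *Hspg2* the VE block mean was 0.790 to 1.46 times that of iXEN cells. *Sparc* was at 0.567 times the iXEN level (0.443 to 0.682), *Nid2* at 0.620 times (0.604 to 0.631) and *Nid1* at 1.80 times (1.51 to 2.20). In the Epi block, 6 members were lower than in ESCs (8.05% of 11022 genes). These were *Lama1* (10.9-fold, 8.51 to 15.7), *Sparc* (5.18-fold, 4.11 to 6.42), *Nid1* (4.89-fold, 4.39 to 5.59), *Col4a1* (4.48-fold, 4.00 to 5.12), *Col4a2* (2.39-fold, 1.20 to 4.52, and 4.5-fold without plate 3) and *Lamc1* (2.16-fold, 1.72 to 2.86). *Lama1*, *Col4a1* and *Col4a2* were above 0 in 9.87%, 10.5% and 6.05% of Epi block cells, against 88.7%, 81.7% and 57.7% of ESCs. These genes met the share of cells in the rule only in ESCs, whose median gene number was 9093.5 against 4823 in the Epi block. *Lamb1* was higher in the Epi block, the 1 member where 8.82% of genes were, by 2.22-fold (1.93 to 2.43). Among cells with 5000 to 8000 genes above 0, of which ESCs had 6, *Lamb1* was instead at 0.414 times the ESC level and 7 members, *Lamb1* among them, were lower in the Epi block. Without plate 4 the 6 lower members became 4.

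**Figure D4:**
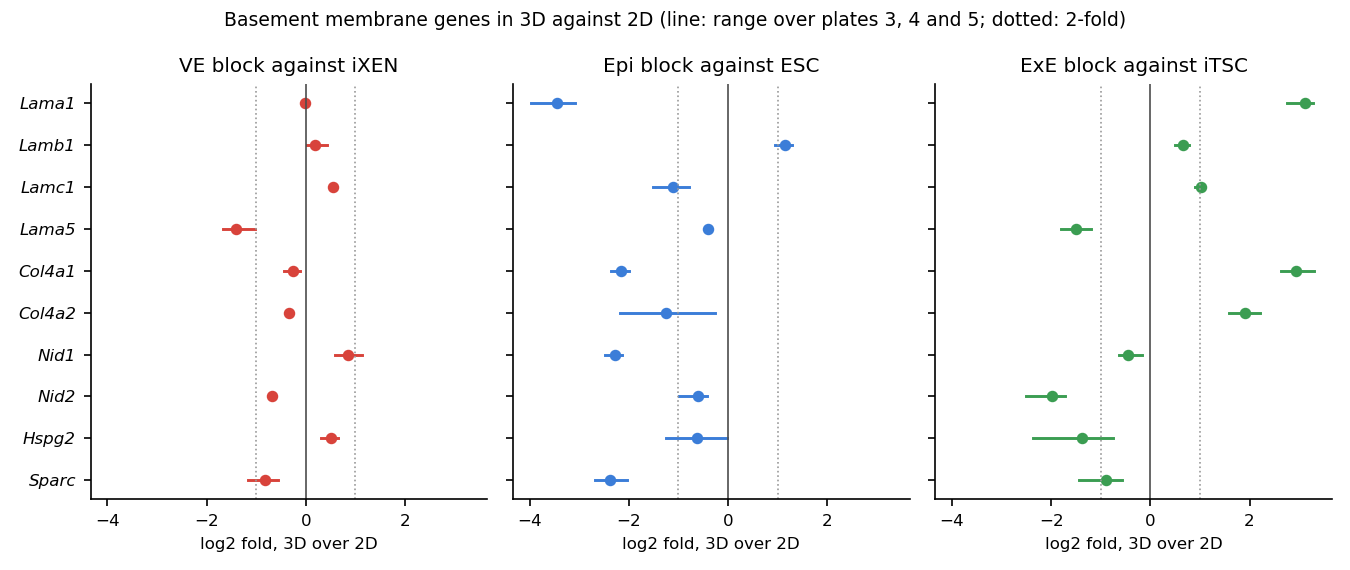
Log2 fold of mean TP10k in a 3D block over its 2D counterpart (x axis) for each basement membrane gene (y axis), with the value over all cells as a point, the range over plates 3, 4 and 5 as a line and 2-fold as dotted lines. The VE block stays within 2-fold of iXEN cells but for *Lama5*, the Epi block lies below ESCs for most genes, and the ExE block lies on both sides of iTSCs.

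Against iTSCs, the ExE block was higher for 3 members (8.55% of 10592 genes), *Col4a1* by 7.64-fold (6.18 to 9.85), *Col4a2* by 3.77-fold (3.00 to 4.61) and *Lamc1* by 2.03-fold (1.87 to 2.13). It was lower for 3 (10.4%), *Nid2* by 3.93-fold (3.28 to 5.66), *Lama5* by 2.83-fold (2.30 to 3.46) and *Hspg2* by 2.602-fold (1.68 to 5.16). In the ExE block cells in which ExE markers led, *Col4a1* averaged 0.0728 TP10k and *Col4a2* 0.0251, at 0.970 and 0.741 times their iTSC level, and none of the 3 was higher by the rule. Median gene numbers, medium, plate and culture, and for Kermit cells DOX, differ together between the RtL-embryoids and the 2D cultures and cannot be told apart.

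The higher levels in the ExE block lay in few cells. The 10 genes summed to 5.32 TP10k in the cells led by ExE markers and to 16.2 TP10k in the other cells, where *Col4a1* averaged 1.82, *Sparc* 9.59 and *Lama1* 0.230 TP10k. *Lama5*, at 1.43 and 1.24 TP10k, did not follow this split. In 11 ExE block cells the sum exceeded 46.8 TP10k, the 5th percentile of the VE block, and these 11 cells held 30.5% of the block's summed level. All 11 expressed at least 2 of the VE genes *Amn*, *Cubn* and *Gata4*, as did 26 cells (7.37%) of the block. In the Epi block 0 cells reached this sum and 0 expressed 2 of these genes, counts that each allow a share of up to 0.955%. Within the ExE block, the cells with the trophoblast stem cell genes *Cdx2* or *Elf5* had a sum of 5.90 TP10k and the 99 cells without them 14.9, a ratio of 0.396 (0.331 to 0.530 by plate), and their median gene numbers were 5614 and 4840.

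Within the VE block, the 79 cells with *Nodal* or *Lefty1*, genes of the Nodal pathway, had a sum of 82.1 TP10k and the remaining cells 109.7 TP10k, a ratio of 0.748 (0.646 to 0.822 by plate). The ratio was 0.597 for *Lama1* (0.478 to 0.770) and 0.589 for *Lamc1* (0.452 to 0.778), but 0.995 for *Nid2* (0.898 to 1.17) and 2.27 for *Lama5* (1.51 to 2.77). The median gene numbers were 5524 and 5252.5.

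Across cells of the VE block, the laminin and collagen IV genes varied together. Spearman's rho was computed over the cells of 1 plate (97 cells on plate 5, the fewest), which share a pool, a plate and a scaling to a common sum, and is given as a description. *Lama1* and *Lamc1* had the highest median rho over the 3 plates, 0.78 (0.66 to 0.80), followed by *Lama1* and *Lamb1* at 0.64 (0.60 to 0.70), *Lama1* and *Col4a2* at 0.64 (0.52 to 0.65), and *Col4a1* and *Col4a2* at 0.60 (0.53 to 0.72). In iXEN cells these pairs had a rho of 0.85, 0.81, 0.72 and 0.88. Of 45 pairs, 33 had a positive rho on all 3 plates, and all 45 were positive in iXEN cells. *Lama5* had the lowest values, with a median rho from -0.23 with *Sparc* to -0.03 with *Nid1* in the VE block and a rho of 0.01 to 0.24 in iXEN cells. *Nid2* followed the laminins weakly in the VE block, at 0.02 with *Lamc1* to 0.05 with *Lamb1*, but had a rho of 0.34 to 0.45 with the 3 chains in iXEN cells. With the number of genes above 0, rho lay between -0.22 and 0.21 for the members in the VE block and between 0.07 and 0.24 in iXEN cells.

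**Figure D5:**
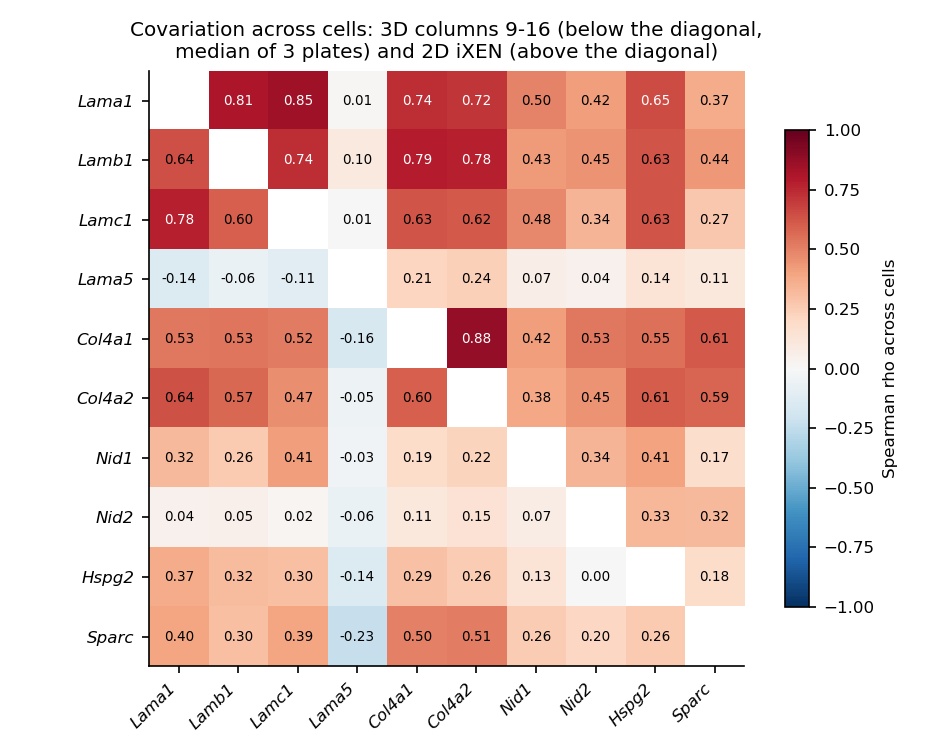
Spearman's rho across cells for each pair of basement membrane genes (color and number), below the diagonal as the median of 3 plates of the VE block and above the diagonal for iXEN cells, both axes listing the 10 genes. The laminin chains *Lama1*, *Lamb1* and *Lamc1* and the collagen IV chains form a block of high values, and the pairs of *Lama5* lie below 0 in the VE block and between 0.01 and 0.24 in iXEN cells.

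Genes that fold, modify and export collagen were higher in the same groups. Of 16 such genes, 15 were in the table. Between the VE and the Epi block 12 of the 14 that could be compared were higher, where 16.5% of all genes were, and 0 lower, with a median log2 fold of 2.21. Between the VE and the ExE block 13 of 14 were higher (8.35% of all genes), with a median of 1.88. *P4hb*, the β subunit of prolyl 4-hydroxylase, averaged 12.04 TP10k in the VE block, 2.37 in the Epi block and 3.28 in the ExE block. *Ppib*, a prolyl isomerase of the endoplasmic reticulum, averaged 10.9, 3.62 and 4.91 TP10k. *Serpinh1*, the collagen chaperone, averaged 5.58, 0.337 and 0.439 TP10k, and *P4ha2*, a catalytic α subunit of prolyl 4-hydroxylase, 4.09, 0.182 and 0.224 TP10k. In iXEN cells 10 of 14 were higher than in ESCs (19.3% of all genes) and 11 of 15 higher than in iTSCs (12.1%), and 1, *P4ha3*, was lower than in iTSCs. The VE block exceeded iXEN cells in *P4ha2*, *Plod1* and *P3h1*, of which *P4ha2* averaged 1.19 TP10k in iXEN cells.

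Other laminin and collagen IV chains were weakly expressed. The 7 other laminin chains summed to 0.245 to 0.636 TP10k per group, of which *Lamb2*, a second β chain, was the highest single gene at 0.414 TP10k in iTSCs and 0.301 in the VE block. The 4 other collagen IV chains summed to 0.0041 to 0.0226 TP10k and none was found in 25% of the cells of any group. Further basement membrane components were mixed. Of 12 genes, 6 could be compared between the VE and the Epi block, of which 3 were higher (16.5% of all genes) and 1, *Col18a1*, was lower (13%). Between the VE and the ExE block 1 of 6, *Agrn*, was higher (8.35% of all genes) and 1, *Col18a1*, was lower (11.9%). The 12 genes summed to 3.27 TP10k in the VE, 3.23 in the ExE and 2.59 in the Epi block. In 2D they summed to 7.65 TP10k in iTSCs, 5.71 in iXEN cells and 2.37 in ESCs, so their sum was not highest in the endoderm-like cells there. *Col18a1* encodes collagen XVIII and averaged 1.20 TP10k in the Epi block, 0.276 in the ExE block and 0.0160 in the VE block, 75.4-fold below the Epi block (67.4 to 92.2), and it was 10.2-fold lower in iXEN cells than in ESCs. *Agrn*, which encodes the proteoglycan agrin, averaged 1.23 TP10k in the VE, 0.765 in the Epi and 0.325 in the ExE block. *Tinagl1*, which encodes a matrix glycoprotein, averaged 5.53 TP10k in iTSCs, 2.79 in iXEN cells, 1.72 in the ExE block, 1.20 in the VE block and 0.0638 in the Epi block.

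Receptors for this matrix did not share one direction. Of 14 receptor genes 8 could be compared between the VE and the Epi block, of which 3 were higher (16.5% of all genes) and 3 lower (13%), with a median log2 fold of -0.18. Between the VE and the ExE block 4 of 7 were lower (11.9%) and 2 higher (8.35%), with a median of -1.05. In iXEN cells 6 of 12 were lower than in iTSCs (16.1%) and 1 higher (12.1%), with a median of -1.18. Against ESCs 4 of 13 were higher (19.3%) and 4 lower (17.2%), with a median of 0.20. *Itga6*, whose product pairs with β1 or β4 integrin to bind laminin, averaged 0.570 TP10k in the Epi block, 0.436 in the ExE block and 0.118 in the VE block. In the Epi, ExE and VE block *Itgb1*, the β1 integrin, averaged 0.541, 1.45 and 1.401 TP10k, and *Dag1*, which encodes dystroglycan, 0.265, 0.756 and 0.197 TP10k. *Itga5*, the α subunit of the fibronectin receptor, averaged 0.626 TP10k in the VE block and 0.126 and 0.139 in the Epi and ExE blocks. Of 9 genes of basement membrane breakdown or its inhibition, 5 could be compared between the VE and the Epi block. Of these, 4 were higher in the VE block (16.5% of all genes), *Mmp15*, *Adamts9*, *Timp1* and *Timp3*. *Timp1* and *Timp3*, which encode inhibitors of matrix metalloproteinases, averaged 1.98 and 0.557 TP10k there, against 0.569 and 0.0277 in the Epi block. *Mmp2* and *Mmp9*, found in too few cells to be compared, averaged 0.0026 and 0.0021 TP10k in the VE block. Their means were 0.126 and 0.0228 TP10k in the Epi block and 0.730 and 0.204 in the ExE block. *Timp2* and *Adamts1*, not compared either, had higher means in the VE than in the Epi block.

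Outside the members, the 10 genes most like their mean profile over the 12 means of blocks by plate and of cultures were *Calr*, *Fam198b*, *Mfsd12*, *Serpinb6c*, *Colgalt1*, *Grtp1*, *Tfpi*, *Itga5*, *Nt5dc3* and *Gna12*, among 11962 genes compared. Pearson's r on ln(TP10k + 1) was 0.987 for *Calr*, a chaperone of the endoplasmic reticulum, and 0.974 for *Gna12*. *Colgalt1*, which adds galactose to collagen (r = 0.979), averaged 4.03 TP10k in the VE block and 3.48 in iXEN cells, against 0.799 to 1.67 in the other groups. The members, whose values make up the profile, had r between 0.960 and 0.977, except *Nid2* (0.814), *Nid1* (0.593) and *Lama5* (-0.503).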

How the data were processed

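Single cells were sequenced with SMART-seq2, which copies mRNA over its full length, without molecular identifiers and without strand. According to the study's methods and the labels, reads were demultiplexed with bcl2fastq 2.20, pseudoaligned with kallisto to the GRCm38 transcriptome, summed per gene and filtered of mitochondrial, ribosomal and pseudogenes. The authors deposited TPM, corrected for transcript length, for 20999 genes in 1931 wells, of which 39 hold no values. TPM keep no read number, so no count model, interval of a level or thinning to equal depth was possible. A very long transcript such as *Hspg2* may be read unevenly over its length, which the length correction does not see.

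From the deposited TPM, wells with at least 2500 detected genes were taken as cells and scaled to 10000 (TP10k). Groups came from the plate and well column or the culture in the labels. Means include cells at 0 and stand with their values on plates 3, 4 and 5, and shares of cells have exact Clopper-Pearson 95% intervals. For a count of 0 the limit given is instead 3 divided by the number of cells. Cells with identical values numbered 0. Each group is 1 sample, so no p-value was computed. A gene counted as differing at 2-fold or more in the same direction on each plate, provided at least 25% of cells in either group were above 0. Levels within 1.5-fold are called close. Computations used Python 3.11.15, numpy 2.4.6, pandas 2.3.3, scipy 1.17.1 and matplotlib 3.10.9.

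The members and gene lists were chosen with earlier results of these data known. Named genes are chiefly the 10 members, up to 4 differing genes per list by their highest mean, and the 10 genes outside the members with the highest Pearson r to their mean standardized profile. Outside this rule, further genes of the lists are named, among them *Plod1*, *P3h1*, *P4ha3*, *Mmp2*, *Adamts1*, *Thbd* and *Afp*. The subsets of cells by marker genes and by the sum of the members were chosen after values had been seen. Alternatives were another minimum of genes or none, unscaled TPM, means of ln(TP10k + 1), cells led by their block's markers, cells with 5000 to 8000 genes, leaving out a plate, and 10% in place of 25% of cells.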

Additional observations from a re-analysis of the deposited data

Results flagged for a closer look

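*Nid1* went opposite ways in the same pair of lineages in 3D and in 2D. Its log2 fold was 1.48 in the VE block over the Epi block, with the same sign on plates 3, 4 and 5, and -1.65 in iXEN cells over ESCs. The difference between these 2 contrasts was not tested, since each group is 1 sample. *Nid1* was 4.89-fold lower in the Epi block than in ESCs, while the VE block and iXEN cells lay 1.80-fold apart.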

How the results depend on the processing

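With 1 sample a group, a value was taken as moved beyond 1.5-fold. Of 1890 values under 10 alternatives, 1680 stayed within it. Part of these could not move. The 10% setting changes no fold, and leaving out a plate or keeping marker-led cells leaves the 2D cells as they were. The counts of higher members in the VE block stayed at 8 to 9 against the Epi block and at 9 against the ExE block, and those in iXEN cells at 7 to 8 against ESCs and at 8 against iTSCs. The 1 lower member stayed at 1 in each of these comparisons. Smaller counts moved. Members higher in the ExE than in the Epi block numbered 2 with a minimum of 4000 genes, with no minimum, with unscaled TPM and with means of ln(TP10k + 1), 3 among cells with 5000 to 8000 genes, 4 with 10% of cells in place of 25%, 0 in cells led by their block's markers, and 1 to 2 without 1 plate. Members higher in the Epi block than in ESCs numbered 0 with a minimum of 4000 genes, with means of ln(TP10k + 1) and among cells with 5000 to 8000 genes. Members higher in iTSCs than in ESCs numbered 5 with no minimum, and those higher in the ExE block than in iTSCs 1 with no minimum and 0 in cells led by their block's markers. The summed level in the ExE block was 4.16 TP10k with means of ln(TP10k + 1) and 5.32 in cells led by ExE markers, and that in iTSCs 53.7 with no minimum. In units of 100 TPM without scaling, the sums were 3.09 in the Epi, 63.5 in the VE and 5.38 in the ExE block, 7.78 in ESCs, 8.14 in iTSCs and 93.8 in iXEN cells. Among folds that met the rule for differing genes, direction turned in 6 cases. Other folds were not checked for this. With no minimum, where wells with 1 gene enter, *Lamc1* was at 7.17 in iTSCs over ESCs and 0.194 in the ExE block over iTSCs. In cells led by their block's markers, *Col4a1* and *Col4a2* were at 0.970 and 0.741 in the ExE block over iTSCs. Among cells with 5000 to 8000 genes, of which ESCs had 6, *Lamb1* was at 0.706 in iTSCs over ESCs and 0.414 in the Epi block over ESCs. For the other moves the cause was not tested. Unknown read depth limits shares of cells for weak genes, and the lack of a second sample limits every comparison.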

Other observations

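Genes of other cell types that secrete or border this matrix had the following levels. Of 8 further genes of the parietal endoderm, which lays down Reichert's membrane, 5 could be compared between the VE and the Epi block and 4 were higher in the VE block, where 16.5% of all genes were. Against the ExE block 3 of 6 were higher (8.35% of all genes) and 2 lower (11.9%). *Srgn* averaged 29.1 TP10k in the VE block, 15.7 in iXEN cells and 1.67 in the ExE block, and *Pth1r* averaged 1.86, 2.46 and 0.171 TP10k. *Krt19* averaged 0.137 TP10k in the VE, 0.0552 in the Epi and 2.61 in the ExE block and *Vim* 0.200, 0.389 and 1.57 TP10k, while the defining marker *Thbd* averaged at most 0.0066 TP10k in any group. Of 7 genes of secretory visceral endoderm, *Apoe* averaged 51.6 TP10k in the VE block and 73.9 in iXEN cells but also 30.4 in the Epi block, and *Ttr* averaged 0.272 TP10k in the VE block and 2.04 in iXEN cells. *Afp* averaged 0.0051 TP10k in the VE block. The 8 fibroblast genes summed to 0.0137 to 0.0615 TP10k per group and the 5 endothelial genes to 0.0085 to 0.0548 TP10k. The part of these levels in the results was not tested.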
